A study of Mus musculus with 6 samples.

Results

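The genes described here are 40 immediate early and dissociation-response genes of the mouse, taken by symbol from a list that was drawn up with earlier results of these data known. No measured value enters the rule itself. All 40 were among the 41388 genes counted in 6 RNA sequencing libraries, and 36 of them had enough reads to enter the test between sexes. The list holds the Fos and Jun families, the Egr, Klf and Nr4a transcription factors, the Dusp phosphatases, the Gadd45 and Btg genes, and other genes that are switched on fast when a cell is stimulated or stressed.

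Each library holds RNA of sorted EGFP-positive cells from embryonic dorsal root ganglia, which contain the cell bodies of the sensory neurons of trunk and limbs, at 18.5 days post coitum on the C57BL/6 strain. There were 3 libraries from female and 3 from male embryos, here called female A, female B and female C, and male A, male B and male C. By their titles all 6 carry the same alleles, RetFloxedEGFP and NaV1.8Cre. Genotype labels, apart from that of male C, give the Cre as one knocked into Scn10a, the sodium channel gene of NaV1.8 (Scn10a<tm2(cre)Jnw>). EGFP thus marks Ret-expressing cells in which that gene has been active, a group made up largely of nociceptors. No treatment, undissociated tissue or other time is among the samples used here, so the levels can be compared across sex and library. Each female library was pooled from 2 embryos (40 ganglia). Male A was pooled from 2 embryos (40 ganglia) and male B from 3 (60 ganglia), while male C came from 1 embryo (20 ganglia) and has a shortened genotype label that does not name the Cre. Ganglia were dissected from T11 to S1, dissociated and sorted, and 10 ng of total RNA was amplified for each library, per the labels' protocols.

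Immediate early genes are transcribed within minutes of a signal, without the need for new protein, because the factors that switch them on, such as SRF with its partners and CREB, are already bound or waiting in the cell. Many of them encode transcription factors (Fos, Jun, Egr1), and others encode proteins that end the response by removing phosphate from MAP kinases (the Dusp family) or by destroying short-lived mRNA (Zfp36). In sensory neurons they respond to firing, growth factors and injury, and enzymatic dissociation and sorting are known to induce many of them in cells from a range of tissues.

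Sequencing depth was 15807666, 24033601 and 22995279 counts in female A to C and 22375570, 23563430 and 15693013 counts in male A to C. A count of 0 in these libraries allows a level of up to 0.125 to 0.191 CPM (the count scaled to the library total), which is 3 counts and covers counting error only. Before any result, 2 libraries have to be set apart. Female C and male B resembled each other more than any other pair over all genes, with a chi-square per degree of freedom of 7.43 against 20.7 to 74.7 for the other pairs, although they are of opposite sex. They also stand at 1 end of the first principal component of all tested genes (0.54 for female C and 0.58 for male B), with the other 4 libraries between -0.45 and -0.11. The spread of the members, their correlation and the test between sexes are therefore also given without these libraries. The summed CPM of 5 neuron markers was 11116, 11114 and 12828 in female A to C and 12068, 12082 and 13931 in male A to C, and that of 6 nociceptor markers was 2671, 3211 and 3199 in the females and 3435, 3186 and 3391 in the males. In bulk RNA of this kind, fewer cells of a type and less RNA per cell cannot be told apart.

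Fos was the most abundant member per length, at 146 ± 92.9 RPKM (CPM per kilobase of gene length, mean ± SD, n = 6). After it came Klf10 at 45.5 RPKM, Klf6 at 43.3 RPKM, Ier3 at 42.0 RPKM, Btg2 at 32.4 RPKM and Jun at 30.6 RPKM. Past Fos, neighbours in this order differed by less than their SDs over libraries. At the low end, 7 members averaged under 1 CPM. Egr4, an EGR-family factor, had a read only in female A and female C (0.0633 and 0.0435 CPM), both under the floor, and the neuronal factor Npas4 had 0.190, 0.707 and 1.48 CPM in female A to C and 0, 2.16 and 0 CPM in male A to C. Fosl1, Egr3, Egr4 and Ier5 were too low to be tested.

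Most members shared 1 pattern over the libraries. Female C and male B held the highest pair of values for 30 of the 36 tested members (32 of all 40), against 23.7% of all 15026 tested genes. Male A held the lowest value for 21 of the 36 (22 of 40), against 17.2% of tested genes. The single highest library was male B for 19 of the 36, against 17.5% of tested genes, female C for 12, against 18.8%, and male C for 5, against 16.9%. The range from the lowest to the highest library reached 4-fold, on the scale of log2(CPM + 0.5), in 17 of the 36, against 1.89% of tested genes, and the 4 untested members did not reach it. The median SD over the 6 libraries was 0.84 on that log2 scale among tested members, spread from 0.20 for Gadd45a to 1.67 for Fosb, and 0.28 among all tested genes.

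**Figure D1:**
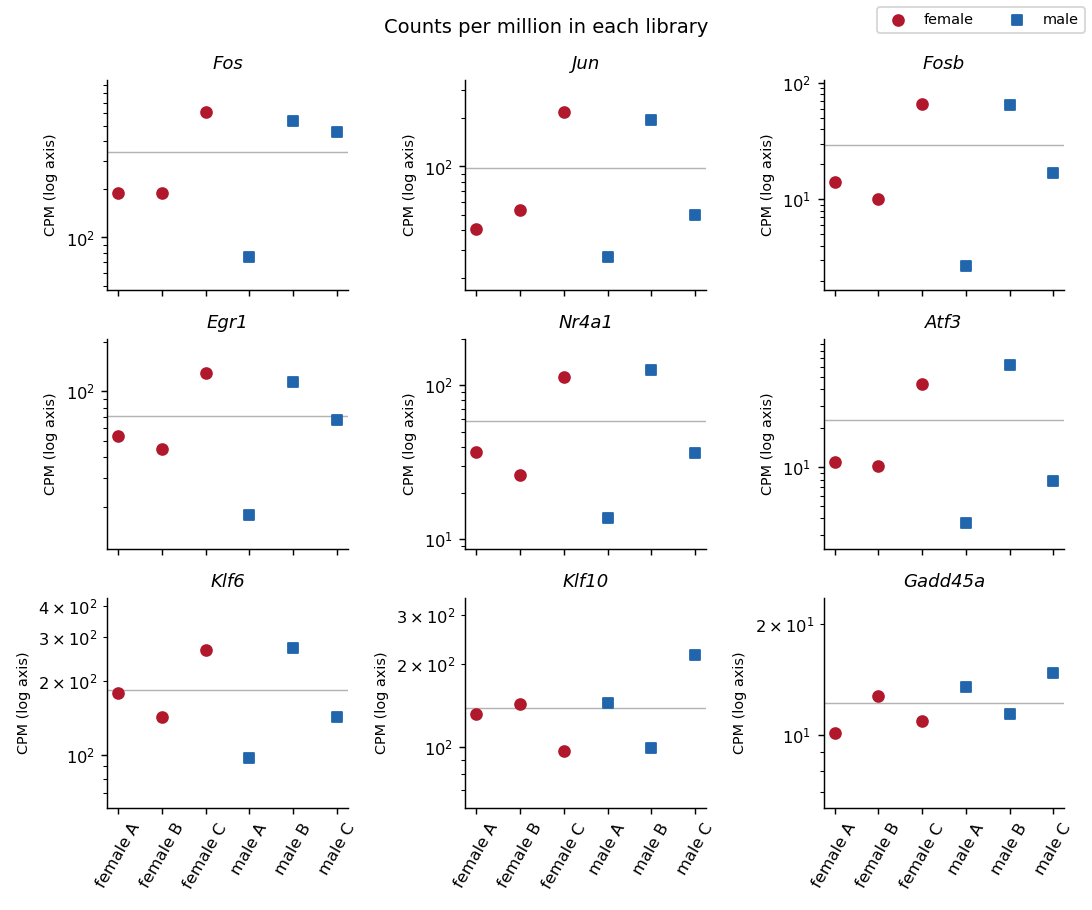
CPM (log axis) of named members in each of the 6 libraries, female libraries left of male ones, with 1 point per library and a grey line at the mean. Fos runs from 75.1 CPM in male A to 608 CPM in female C, and most genes drawn have their highest points in female C and male B.

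The AP-1 factors, which pair a Fos protein with a Jun protein on DNA, included the member with the widest range over libraries. Fos (ENSMUSG00000021250, GRCm38 chr12:85473890-85477273) had 189.6, 190.2 and 608 CPM in female A to C and 75.1, 536 and 457 CPM in male A to C. Its highest library had 8.09 times the level of its lowest, and the sexes overlapped throughout. Fosb (chr7:19302721-19310045), a Fos paralog known for its induction in neurons, had 14.2, 10.2 and 66.2 CPM in the females and 2.68, 64.5 and 16.9 CPM in the males. Its highest library was 24.7 times its lowest, which was the widest range among members with more than 3 counts in every library. Jun (chr4:95049034-95052222), the main Jun partner and an injury-induced gene of sensory neurons, had 40.4, 53.0 and 219 CPM in the females and 26.9, 196 and 49.7 CPM in the males. In Jun the 2 high libraries stood well clear of the other 4, which lay within 26.9 to 53.0 CPM. Exon bases of Jun are overlapped for 7.28% of their length by Junos on the other strand, and since no source used here gives the strand setting, reads of such partners cannot be told apart.

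Atf3 and Csrnp1 had the widest ranges after Fosb. Atf3 (chr1:191170296-191183340), a stress-induced partner of Jun and a standard marker of injured sensory neurons, had 10.9, 10.2 and 44.0 CPM in female A to C and 3.71, 61.7 and 7.77 CPM in male A to C. Junb, a Jun paralog, had 3.04, 2.79 and 12.0 CPM in the females and 2.77, 15.2 and 5.86 CPM in the males. The remaining AP-1 genes varied less. Fosl2 had 4.49, 6.49 and 9.70 CPM in the females and 5.54, 14.98 and 4.33 CPM in the males. Jund, the Jun family member that most cells express at rest, stayed within 7.97 to 11.7 CPM in the females and 6.56 to 11.8 CPM in the males, with a highest library at 1.798 times the lowest, and with 18.9% of its exon bases overlapped by Gm11175. Fosl1 lay between 0.0633 and 0.261 CPM in the females and between 0.223 and 0.594 CPM in the males. Maff, a small MAF factor counted in this class, had 1.52, 2.12 and 3.48 CPM in the females and 1.65, 3.31 and 1.66 CPM in the males. With Atf3 and Maff the AP-1 class had 9 members, of which 5 ranged over 4-fold and 8 had female C and male B on top.

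The sequences just upstream of 5 members that the results turn on are shown as they stand in the reference, from RefSeq on GRCm38.p6. Each is the 150 bases before the RefSeq start, 5′ to 3′ on the gene's strand, and capitals mark a searched motif where there is one.
Fosb, minus strand, chr7:19310046-19310195: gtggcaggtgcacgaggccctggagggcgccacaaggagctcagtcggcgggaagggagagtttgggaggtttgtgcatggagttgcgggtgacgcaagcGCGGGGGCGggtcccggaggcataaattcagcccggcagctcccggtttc
Atf3, minus strand, chr1:191183334-191183483: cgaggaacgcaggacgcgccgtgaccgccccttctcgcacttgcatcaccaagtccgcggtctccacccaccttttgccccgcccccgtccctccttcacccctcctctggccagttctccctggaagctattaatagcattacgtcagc
Jun, minus strand, chr4:95052223-95052372: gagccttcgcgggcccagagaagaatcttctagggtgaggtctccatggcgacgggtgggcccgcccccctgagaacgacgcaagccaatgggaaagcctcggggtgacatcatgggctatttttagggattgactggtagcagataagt
Nr4a1, plus strand, chr15:101266696-101266845: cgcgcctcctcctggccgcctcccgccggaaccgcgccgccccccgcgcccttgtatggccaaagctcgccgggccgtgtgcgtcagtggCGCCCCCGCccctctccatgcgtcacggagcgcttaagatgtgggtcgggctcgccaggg
Fos, plus strand, chr12:85473740-85473889: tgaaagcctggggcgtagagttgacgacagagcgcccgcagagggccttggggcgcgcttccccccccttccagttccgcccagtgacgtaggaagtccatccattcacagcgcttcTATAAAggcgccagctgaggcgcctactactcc

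The capitals in Fosb and in Nr4a1 mark GCGGGGGCG, a sequence that EGR proteins bind, which lies on the gene's own strand in Fosb and on the opposite strand in Nr4a1. In Fos they mark a TATA box, TATAAA. Promoters were found for 33 of the 40 members and searched over the 250 bases before the start, each motif on both strands. GCGGGGGCG was in 8 of the 33 (24.2%: Fosb, Nr4a1, Fosl2, Dusp2, Klf2, Klf4, Srf and Zfp36), against 3.37% of all 18695 promoters. The CRE TGACGTCA was in 3 (9.09%: Btg2, Dusp1 and Maff) against 2.00%, and the CArG box, the site of SRF, was in 3 (9.09%: Dusp5, Srf and Zfp36) against 1.35%. The AP-1 site TGANTCA was in 2 members (6.06%) against 6.17%, the other EGR site GCGTGGGCG in 1 (3.03%) against 0.717%, and TATAAA in 7 (21.2%) against 11.7%. A match is a description of these letters and says nothing of binding in these cells. Only exact matches within these 250 bases were sought, so a promoter without a match may still hold a variant or more distant site.

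**Figure D2:**
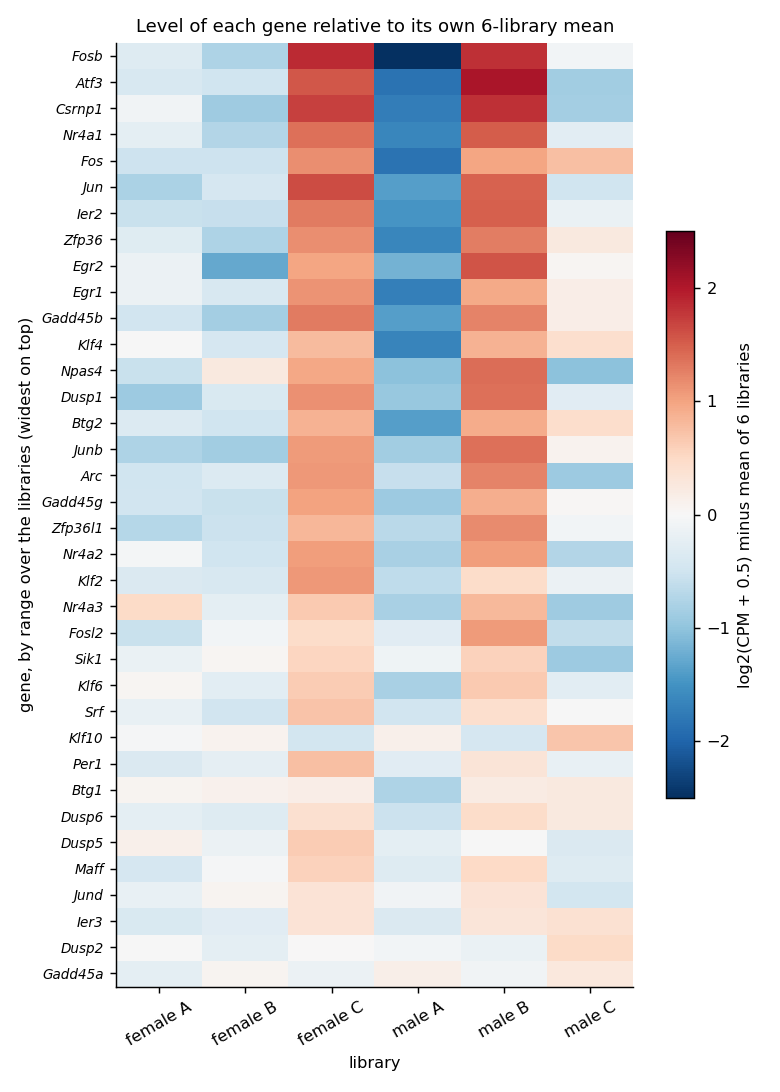
Deviation of each tested member in each library from its own mean over the 6 libraries, on the log2(CPM + 0.5) scale, with the widest range on top and female libraries left of male ones. Most members are above their mean in female C and male B and below it in male A, while Klf10 is lowest in female C and highest in male C.

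Among the EGR and other inducible transcription factors, the same libraries led. Egr1 (ENSMUSG00000038418), a zinc finger factor used as a marker of neuronal activity, had 54.0, 45.2 and 129.7 CPM in female A to C and 17.9, 114 and 67.1 CPM in male A to C. Egr2, its paralog that also drives myelination in Schwann cells, had 9.55, 4.08 and 21.7 CPM in the females and 4.38, 32.4 and 11.02 CPM in the males. Egr1 ranged 7.24-fold and Egr2 7.95-fold. Egr3 stayed at or under 0.217 CPM except in male B, at 1.02 CPM.

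Of the Nr4a orphan nuclear receptors, Nr4a1 (chr15:101266846-101274792) had 36.7, 26.0 and 114 CPM in the females and 13.8, 125 and 36.2 CPM in the males. Nr4a2 had 5.95, 4.20 and 13.2 CPM in the females and 3.31, 13.2 and 3.50 CPM in the males. Nr4a3 was low, at 0.949, 0.374 and 1.13 CPM in the females and 0.0894, 1.32 and 0.0637 CPM in the males. In all 3 receptors female C and male B were the highest pair, and the lowest library was male A or male C.

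The Klf zinc finger factors did not behave alike. Klf6, which takes part in axon growth, had 178, 142 and 266 CPM in female A to C and 97.2, 270.0 and 142 CPM in male A to C. Klf4 had 12.4, 9.20 and 22.05 CPM in the females and 3.62, 23.2 and 16.9 CPM in the males. Both genes were lowest in male A. Klf2 stayed under 3 CPM in every library and also had its highest pair in female C (2.78 CPM) and male B (1.61 CPM). Klf10, a TGF-beta-inducible repressor, ran the other way, with 131, 143 and 96.6 CPM in the females and 145, 99.6 and 215 CPM in the males. Female C and male B were its lowest libraries and male C its highest.

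Csrnp1, an AXIN-inducible nuclear protein, ranged 17.1-fold, with 4.11, 2.16 and 15.6 CPM in female A to C and 0.983, 16.8 and 2.23 CPM in male A to C. Srf, which itself activates many of these genes, moved far less, with 2.53, 1.96 and 5.13 CPM in the females and 1.97, 4.12 and 2.93 CPM in the males. It still had female C and male B as its highest pair. Of the 14 members in this class, 12 had those libraries on top and 6 ranged over 4-fold.

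The feedback regulators split by gene. Zfp36, which binds AU-rich mRNA and triggers its decay, had 18.5, 13.2 and 51.4 CPM in female A to C and 7.06, 56.5 and 27.3 CPM in male A to C. Dusp1, a nuclear MAP kinase phosphatase, had 9.17, 13.5 and 39.9 CPM in the females and 9.03, 47.1 and 14.4 CPM in the males. Their highest library had 7.999 times (Zfp36) and 5.22 times (Dusp1) the level of their lowest. Dusp6, a cytoplasmic phosphatase of ERK, had a flatter profile, with 59.6, 56.7 and 94.0 CPM in the females and 48.8, 98.6 and 84.4 CPM in the males. Dusp5, a nuclear ERK phosphatase, had 3.54, 2.83 and 5.22 CPM in the females and 2.59, 3.14 and 2.36 CPM in the males, so that its next highest library after female C was female A and not male B. Zfp36l1 had female C (7.83 CPM) and male B (10.1 CPM) on top, but 56.0% of its exon bases are overlapped by Gm26669 on the other strand, and its reads are uncertain for that reason.

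Btg1 and Btg2, antiproliferative relatives, differed in spread. Btg2 had 60.7, 53.8 and 141 CPM in female A to C and 29.1, 146 and 103 CPM in male A to C. In Btg1 male A stood alone at 34.4 CPM, with 61.9, 64.2 and 66.4 CPM in the females and 68.3 and 70.0 CPM in male B and C. Sik1, a salt-inducible kinase that restrains CREB coactivators, had 4.49, 5.28 and 7.57 CPM in the females and 4.69, 7.85 and 2.49 CPM in the males. Of the 9 feedback regulators, 3 ranged over 4-fold and 6 had female C and male B on top.

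The Gadd45 growth-arrest genes, which act on stress kinases and DNA repair, split as well. Gadd45b had 2.34, 1.71 and 9.35 CPM in female A to C and 1.03, 8.95 and 3.95 CPM in male A to C, a 9.10-fold range. Gadd45g had 6.01, 5.74 and 17.8 CPM in the females and 4.38, 16.6 and 8.79 CPM in the males. Gadd45a, which is also a p53 target, was the flattest tested member, at 10.1, 12.8 and 10.9 CPM in the females and 13.5, 11.4 and 14.7 CPM in the males, a range of 1.45-fold. Gadd45a shares 19.1% of its exon bases with E230016M11Rik on the other strand.

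Among the other responders, Ier2 ranged 8.89-fold, with 5.95, 5.87 and 22.8 CPM in female A to C and 2.95, 26.2 and 8.03 CPM in male A to C. Ier3, a survival-linked stress gene, ranged only 1.70-fold, with 35.6, 37.7 and 58.8 CPM in the females and 35.8, 56.8 and 60.5 CPM in the males, and male C was its highest library. The remaining responders were low in level. Arc, the synaptic activity gene, had 0.506, 0.624 and 2.52 CPM in the females and 0.447, 2.84 and 0.255 CPM in the males. Per1, a clock gene that CREB also induces, had 2.15, 2.41 and 5.22 CPM in the females and 2.32, 3.78 and 2.49 CPM in the males. Ier5 stayed within 0.250 to 0.391 CPM in the females and 0.127 to 0.382 CPM in the males. Arc, Ier2 and Per1 shared female C and male B as their highest pair.

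**Figure D3:**
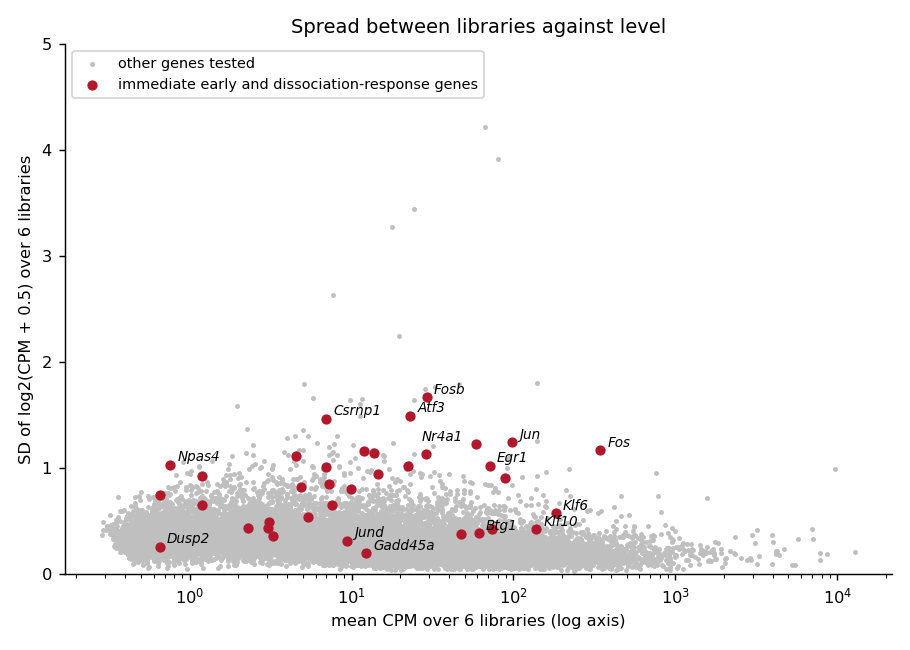
SD over the 6 libraries of log2(CPM + 0.5) against mean CPM (log axis), with members as coloured points over all tested genes in grey. Members lie above most genes of like level, with medians of 1.02 for members and 0.23 for all tested genes at a mean of at least 10 CPM.

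The spread was as wide among members with many reads. Among the 18 members with a mean of at least 10 CPM, the median SD was 1.02 on the log2 scale, against 0.23 for all tested genes at that level. The biological coefficient of variation that edgeR fits within sexes had a median of 0.473 over the 36 tested members and 0.238 over all tested genes, and 33 of the 36 lay above that all-gene median. Without both female C and male B, a choice made after seeing the data, the members' median SD was 0.40. In that setting 3 members ranged over 4-fold and male A was the lowest library for 21. The same values over all tested genes were not computed without these libraries. The all-gene values given above cover every library, so they are no background for these counts.

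Most members also moved together. Over the 630 pairs of tested members, the median Pearson correlation across the 6 libraries was 0.81, against a median of 0.03 over all pairs of tested genes, and the median Spearman correlation was 0.71. The correlation was above 0.8 in 324 pairs (51.4%), against 6.51% of all pairs, and below 0 in 83. These points share 6 libraries and their depth, so the values describe these libraries. The median rests in large part on female C and male B. Without them it was 0.45, against 0.03 for all tested genes, and 24.8% of member pairs were above 0.8, against 12.9% of all pairs.

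**Figure D4:**
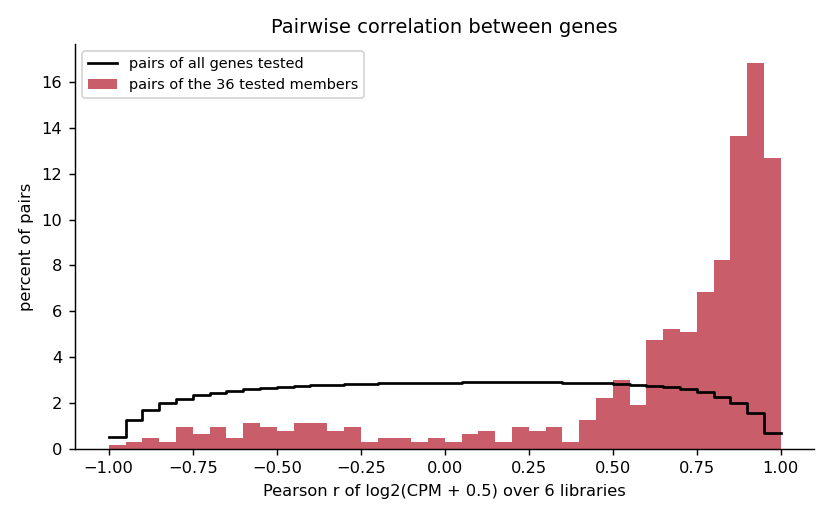
Distribution of pairwise Pearson correlations across the 6 libraries, for the 630 pairs of tested members and for pairs of all tested genes, as percent of pairs in each bin. The member pairs pile up near 1, with a median of 0.81, while the pairs of all genes spread over the whole axis around 0.03.

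Against the mean of all tested members, 27 of the 36 had a correlation above 0.8. That mean includes the gene itself, which raises the value, and the share of all genes above that mark was not computed. The first principal component of the members carried 88.6% of their variance, against 42.4% for that of all tested genes. The log2 values were not scaled, so members with a wide range weigh most in it. Along the members' component the libraries lay at -0.16, -0.24 and 0.52 in female A to C and -0.57, 0.56 and -0.10 in male A to C. Klf10, Gadd45a and Dusp2 were the 3 members with a correlation below 0, with Klf10 at -0.64. Dusp2 was near the floor of counting, at 0.458 to 0.652 CPM in the females and 0.509 to 1.08 CPM in the males.

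Male C, the single-embryo library, was high for some members and low for others. It was the highest library for 5 members, stood at the 3rd place from the top for 17 and was among the lowest 2 for 9. Its Fos level of 457 CPM was near that of male B, yet its Jun level was below that of female B. Per 100 Fos reads, Jun had 21.3, 27.9 and 35.97 reads in female A to C and 35.9, 36.6 and 10.9 in male A to C. Atf3 had 5.74, 5.38 and 7.24 reads per 100 Fos reads in the females and 4.94, 11.5 and 1.70 in the males. Nr4a1 had 19.4, 13.7 and 18.7 in the females and 18.4, 23.4 and 7.93 in the males. All 3 ratios were lowest in male C, and they share the Fos count of each library as their denominator. Of 35 members set against Fos, 25 were lowest per Fos read in male C, 6 in female C and the rest elsewhere. The share over all genes was not computed. Female C and male A, at opposite ends of the Fos range, had almost the same Jun per Fos read.

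The comparison that the labels give is between sexes, and no member passed it. With edgeR's quasi-likelihood test on 3 female against 3 male libraries and Benjamini-Hochberg adjustment over 15026 genes, 0 of the 36 tested members were called at 0.05, against 0.0333% (5 genes) of all tested genes. At an unadjusted p under 0.05 there were again 0 members, against 1.10% of tested genes, and DESeq2 and limma-voom each called 0 members. That unadjusted count was not stable: it was 6 of 36 without male B (469 of 15279 genes), 2 without female C (802 of 15276 genes) and 2 with pool size in embryos as a covariate (285 of 15026 genes), with 0 passing the adjustment in each. Without both female C and male B, 0 of 33 tested members had an unadjusted p under 0.05 and 0 were called. The libraries came from different embryos, but 5 of them were pools, so the p-values measure the spread between these libraries. No member had its sexes apart. In 0 of the 36 did every female library lie above or below every male one, against 4.60% of tested genes with the females above and 1.32% with them below.

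The differences that the members did show between sexes were small against their spread. Log2 fold changes of female over male ran from -0.48 for Egr2 to 0.62 for Nr4a3, with a median of -0.04, and 16 members had a positive and 20 a negative value. Fos averaged 329 ± 241 CPM in females and 356 ± 246 CPM in males (SD, n = 3 each), which gives -0.17 on the log2 scale for female over male (standard error 0.63, edgeR quasi-likelihood adjusted p = 1.00). Its sign was not stable: it was -0.95 without female C, 0.20 without male B, -0.57 without both and 0.04 with limma-voom. Dusp5 had the lowest unadjusted p of the members, 0.177 in that fit across all genes, at a log2 fold change of 0.46 (standard error 0.32). Klf10 came next at -0.38 (standard error 0.28) and Gadd45a followed at -0.29 (standard error 0.22). None of these passed, and single libraries moved all 3. With each library left out in turn the log2 fold change of Dusp5 ran from 0.19 (without female C) to 0.64 (without female B). That of Klf10 ran from -0.63 (without male B) to -0.02 (without male C), and that of Gadd45a from -0.41 (without male B) to -0.18 (without male C). Without both female C and male B they were 0.29 for Dusp5, -0.47 for Klf10 and -0.37 for Gadd45a.

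**Figure D5:**
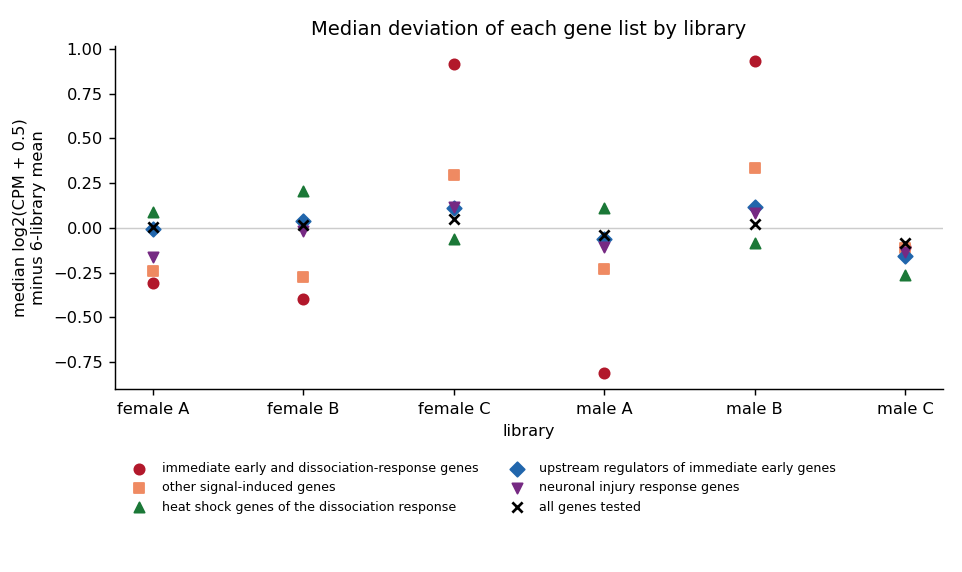
Median deviation per library, on the log2(CPM + 0.5) scale, of the tested members and of related gene lists, with female libraries left of male ones. The members run from -0.81 in male A to 0.93 in male B, while the other signal-induced genes stay within -0.27 to 0.33.

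Further signal-induced genes showed this pattern in part. Of 38 such genes outside the 40, 20 had female C and male B as their highest pair, against 23.7% of all tested genes. The range reached 4-fold in 4 of them, against 1.89%, and 0 passed the test between sexes, against 0.0333%. Their median SD was 0.32, against 0.28 among all tested genes. These genes, like the lists below, were picked by name with earlier results of these data known. Cyr61, a matrix protein induced through SRF, had 74.6, 75.02 and 281 CPM in female A to C and 27.7, 261 and 122 CPM in male A to C. Socs3, a feedback inhibitor of cytokine signalling, had 7.59, 7.78 and 28.0 CPM in the females and 4.83, 36.8 and 9.69 CPM in the males. Cyr61 had the same order of libraries as Fos, and Socs3 differed from it in having male B above female C. The 24 genes that act upstream, such as the MAP kinases and the SRF and CREB partners, were flat by comparison. Their median SD was 0.26, near that of all tested genes. Female C and male B were on top in 8, against 23.7% of all tested genes, and 0 ranged over 4-fold, against 1.89%.

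Of 12 heat shock genes of the dissociation response, 3 ranged over 4-fold, against 1.89% of all tested genes. Female C and male B were on top in 4 of the 12, against 23.7%, and 0 were called between sexes, against 0.0333%. Hspa1a, an inducible chaperone, had 5.31, 7.82 and 22.05 CPM in female A to C and 2.73, 20.4 and 0.637 CPM in male A to C. It has a near-identical copy, Hspa1b, and reads may be split between them. Dnajb1, its co-chaperone, had 64.2, 79.7 and 136 CPM in the females and 49.8, 135 and 62.3 CPM in the males. Hspa8, the constitutive form, ran the other way, with 1117, 1033 and 794 CPM in the females and 1072, 754 and 1060 CPM in the males. Hspe1, Hspd1 and Dnaja1, like Hspa8, had female C and male B as their lowest pair. Of 18 neuronal injury genes 15 were tested, of which 6 had female C and male B on top, against 23.7% of all tested genes. The range reached 4-fold in 1, against 1.89%, and 0 were called between sexes, against 0.0333%. The injury gene Sprr1a was at 0 in all 6 libraries.

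Several measures moved with the members. The summed CPM of 9 glial markers was 1955, 1786 and 2208 in female A to C and 1872, 2305 and 2079 in male A to C, highest in female C and male B. That of 6 fibroblast markers was 544, 438 and 603 in the females and 484, 739.7 and 428 in the males. The glial sums differed by under 1.5-fold over the libraries, and no marker of either list was at 0 in every library. The 6 macrophage markers summed to between 1.64 and 1.87 CPM. The 5 erythroid markers summed to 40.6, 102 and 191 CPM in the females and 998, 138 and 32.8 CPM in the males, highest in male A, where most members were lowest. The part of these cell types in the members' levels was not tested.

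Members are richer in G and C than most genes, at a median of 55.3% against 49.3% for all tested genes. The percentage is that of each gene's longest GENCODE M21 transcript. With each library's trend on GC content removed, a choice made after seeing the data, the members' median deviation was -0.15, -0.33 and 0.70 in female A to C and -0.79, 0.86 and -0.04 in male A to C, against -0.31, -0.40 and 0.92 in the females and -0.81, 0.93 and -0.11 in the males as measured. Under it 15 members ranged over 4-fold and 27 had female C and male B on top. The members' median SD was then 0.71, against 0.84 as measured, and their median pairwise correlation 0.66, against 0.81. The shares over all tested genes were not computed with the trend removed.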

How the data were processed

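The authors deposited, for each of the 6 libraries, a table of 41388 genes with its read count, RPKM and CPM. Counting used featureCounts 1.4.5 (Subread) on GRCm38.p2, per the submitters' processing notes. No source used here gives the aligner, annotation release, strand setting or handling of multimapping reads. The deposited counts sum to between 15693013 and 24033601 per library. The deposited CPM equals count over library total, and the deposited RPKM equals CPM per kilobase of the deposited length, which was checked for every gene. Levels here are counts scaled to library total, as in those columns. Symbols came from GENCODE M21 for 40254 identifiers (97.26%) and coordinates are the deposited ones.

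The members and all gene lists were chosen with earlier results of these data known. Deviations and SDs used log2(CPM + 0.5), a scale that understates differences of low genes. Female was compared with male by edgeR 4.0.16 (filterByExpr, TMM factors, quasi-likelihood, R 4.3.3, 15026 genes, Benjamini-Hochberg at 0.05). DESeq2 1.42.0 and limma 3.58.1 served as alternatives. The edgeR test was also run on simulated counts with the same spread for every gene, lower than the members' median. That run does not show what the test could detect among the members. Any of the 40 members could be named, as could the genes of the related lists, the 10 genes most like the members' mean over libraries and the 5 most opposite. Promoters printed are those of the 5 members with the highest SD among those with a mean of at least 10 CPM and with a RefSeq promoter. Correlations are descriptions over 6 libraries. Members are not replicates. Promoters are RefSeq's.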

Additional observations from a re-analysis of the deposited data

How the results depend on the processing

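The count of members over a 4-fold range, 17, was 31 at 2-fold, 5 at 8-fold and 3 without both female C and male B, and 13 to 17 with each library left out in turn. The members' median SD of 0.84 was 0.73 with log2(CPM + 1), 1.02 at a mean of at least 10 CPM, 0.71 with the GC trend removed, 0.40 without both libraries, and 0.71 to 0.90 with each left out in turn. The median pairwise correlation of 0.81 was 0.88 at a mean of at least 10 CPM, 0.76 over all members with a read, 0.71 by Spearman, 0.66 with the GC trend removed and 0.45 without both libraries, and 0.77 to 0.91 with each left out. The commonest highest library held 19 members, against 10 at a mean of at least 10 CPM (male B), 22 without both libraries (male C) and 19 to 31 with each left out. It was male B for 30 without female C, and female C for 31 without male B. The commonest lowest library held 17 to 25 with each left out, and without male A it was female B for 17. The highest pair held 14 of the 18 members at a mean of at least 10 CPM. Removing the GC trend and leaving out both libraries were chosen after seeing the data.

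No alternative called a member between sexes, with 0 to 0 members called as each library was left out, and the lowest adjusted p of any member over the alternatives was 0.782, without female C. With the letter as a replicate block 0 members were called and the log2 fold change of Fos was 0.0446, against 0.0442 with limma-voom, and it ran from -0.95 to 0.20 with each library left out. Deviations from the sex means correlated at 0.28 for A, -0.29 for B and -0.08 for C over 15026 genes. Female C with male B, of unlike letters, had 0.55. With 3 libraries a sex the deviations depend on each other, so these values cannot settle whether the letters pair the libraries. The log2 fold changes of Dusp5, Klf10 and Gadd45a, the other members followed through the alternatives, kept their sign and none passed the threshold. Depth limits the 7 members under 1 CPM, and 3 libraries a sex limit the test.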

Other observations

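Genes outside the list were ranked by their correlation with the mean of the members over the 6 libraries, among 8751 genes with a mean of at least 10 CPM, as a description with no test. Sema3b, a secreted semaphorin, was the nearest, at 9.11, 9.03 and 17.7 CPM in female A to C and 6.39, 17.3 and 10.8 CPM in male A to C. Gm10800, a predicted gene, came next, at 4.55, 3.74 and 29.2 CPM in the females and 1.61, 22.8 and 5.29 CPM in the males. Sae1, a subunit of the SUMO-activating enzyme, was the next after it and had a narrower range, with 144, 146 and 175 CPM in the females and 135, 169 and 149 CPM in the males. Col4a1, a basement membrane collagen, had 60.7, 54.3 and 90.8 CPM in the females and 47.4, 89.0 and 62.7 CPM in the males. Golph3l, a Golgi protein, was the most opposite, with 40.3, 41.7 and 29.1 CPM in the females and 47.1, 29.8 and 39.3 CPM in the males. In all, 532 of the 8751 genes (6.08%) had a correlation above 0.9 and 392 had one below -0.9. Among the 10 nearest genes the SD over libraries on the log2(CPM + 0.5) scale ran from 0.14 for Sae1 to 1.49 for Gm10800.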
